A study of Mus musculus with 18 samples.

Results

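The clade A serpins of the mouse liver were examined as a family of 10 genes, which are 10 of the 54838 genes in the deposited expression table. They were taken by gene symbol: Serpina1a, Serpina1b, Serpina1c, Serpina1d, Serpina1e, Serpina3k, Serpina3m, Serpina3n, Serpina6 and Serpina12. Messenger RNA had been sequenced in 18 samples from C57BL/6 mice, in 6 groups of 3. WT mice and mice with a global knockout of the miR-181ab1 cluster (GKO) each gave normal livers from untreated animals, and non-tumour livers and tumours from animals treated with diethylnitrosamine (DEN), a carcinogen that is activated by hepatocytes. DEN was injected once at 25 mg/kg on postnatal day 12, and the age of all samples was 36 weeks. The WT animals were littermates without the knockout, and the knockout was present in every tissue, so that effects of other cell types on the liver are included. The labels do not tie samples to single mice. According to the supplement, non-tumour tissue was collected from around the tumours, so a tumour and a non-tumour sample may share a mouse. The main tests treat them as independent. The study's supplement counts mice as the units of an mRNA comparison of tumours and non-tumour livers, without saying whether they are the mice of these samples, so p-values measure the spread between these samples only.

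Serpins are secreted or intracellular proteins, most of which trap a serine protease by offering it an exposed loop, the reactive centre loop, as bait. Hepatocytes make the clade A serpins of the plasma. Serpina1a to Serpina1e are the mouse copies of alpha-1 antitrypsin, the main plasma inhibitor of neutrophil elastase. Serpina3k, Serpina3m and Serpina3n belong to the mouse expansion of alpha-1 antichymotrypsin, in which Serpina3k is known as contrapsin or kallikrein-binding protein and Serpina3n as an acute phase inhibitor of granzyme B. Serpina6 encodes corticosteroid-binding globulin, a hormone carrier without inhibitory activity, and Serpina12 encodes vaspin, a secreted inhibitor of kallikrein 7 that was first described in fat.

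All 10 genes lie on chromosome 12 of mm10, in a cluster of 42 annotated genes between 103614786 and 104414329 that starts with Serpina10 and ends with Serpina3n. The Serpina1 genes, Serpina6 and Serpina12 are on the minus strand and the Serpina3 members on the plus strand. The 5 Serpina1 coding sequences are 96.3% to 98.5% identical to each other, and those of the 3 Serpina3 members 82.9% to 91.4%. Only 86 of the 1239 aligned coding bases (6.9%) differ among the Serpina1 genes. The 60 coding bases with the most differences are shown because they are where reads of the copies can best be told apart and because they encode part of the reactive centre loop. All lie in a single exon on the minus strand, and capitals mark the 18 positions at which the 5 copies differ.
Serpina1a, chr12:103853757-103853816: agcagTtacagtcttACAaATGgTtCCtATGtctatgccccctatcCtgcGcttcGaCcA
Serpina1b, chr12:103728324-103728383: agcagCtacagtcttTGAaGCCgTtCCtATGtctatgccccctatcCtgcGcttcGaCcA
Serpina1c, chr12:103895094-103895153: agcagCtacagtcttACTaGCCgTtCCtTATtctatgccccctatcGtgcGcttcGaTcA
Serpina1d, chr12:103763762-103763821: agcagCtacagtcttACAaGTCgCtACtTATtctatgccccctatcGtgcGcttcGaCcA
Serpina1e, chr12:103947100-103947159: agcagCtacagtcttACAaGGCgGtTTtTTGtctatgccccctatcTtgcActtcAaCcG

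Because of this likeness, the values of single Serpina1 genes are less certain than their sum. Of all 100-base windows of a gene's annotated transcripts, 85.6% were found in no other transcript for Serpina1e, 85.2% for Serpina1b, 70.7% for Serpina1d, 57.2% for Serpina1a and 30.7% for Serpina1c. The share was 93.9% or more for the other 5 members and was highest for Serpina6 and Serpina12, of which every window was unique. How reads that fit several copies were counted is not given in the sources used here. The annotated span of Serpina1b also contains Serpina1d, and Serpina3m and Serpina3k are annotated from the same first base, 104338486, so reads in shared exons could be given to either gene or to neither.

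The promoters of the Serpina1 genes are also alike. In the RefSeq promoter sequences of build GRCm38.p6, which held 7 of the 10 members, the 120 bases before the start site were 97.5% identical between Serpina1b and Serpina1c, the copies with the highest and the lowest mean level in WT tumours.

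Expression was given as TPM (read counts per transcript length, scaled to a total of 1000000 in each sample), so levels can be set side by side between genes. Depth ranged from 11924893 to 20751450 gene reads per sample. The lowest value of a member, Serpina12 in GKO tumour 1, rested on 31 reads. Alb (albumin), a defining product of hepatocytes, was at 22860 TPM or more in all 18 samples. WT tumours 1 and 2 were closer to each other (Pearson's r = 0.982 across 13914 genes) than any of the other 17 pairs within a group (0.919 to 0.979), and each was at r = 0.921 or less with WT tumour 3. WT non-tumour 2 stood apart from the other WT non-tumours, with r = 0.929 and 0.933.

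In normal WT livers, Serpina3k was the most abundant member, at 6126 ± 1135 TPM (SD, n = 3), followed by Serpina1e at 5166 ± 2656, Serpina1c at 4285 ± 603.6, Serpina1b at 4039 ± 224.4 and Serpina1a at 3563 ± 359.7 TPM. The ranges of these neighbours overlapped. Serpina1d followed at 2352 ± 460.3 TPM, below every value of the Serpina1 copies before it. The other 4 members were lower still, with Serpina6 at 224.2 ± 17.7, Serpina3n at 97.2 ± 11.5, Serpina3m at 70.6 ± 21.6 and Serpina12 at 26.6 ± 22.1 TPM. In WT tumours the order was different, with Serpina1b first at 13113 ± 1598 TPM and Serpina1a second at 8139 ± 631.7 TPM among the genes with tight replicates, and Serpina3k down at 1585 ± 866.5 TPM.

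**Figure D1:**
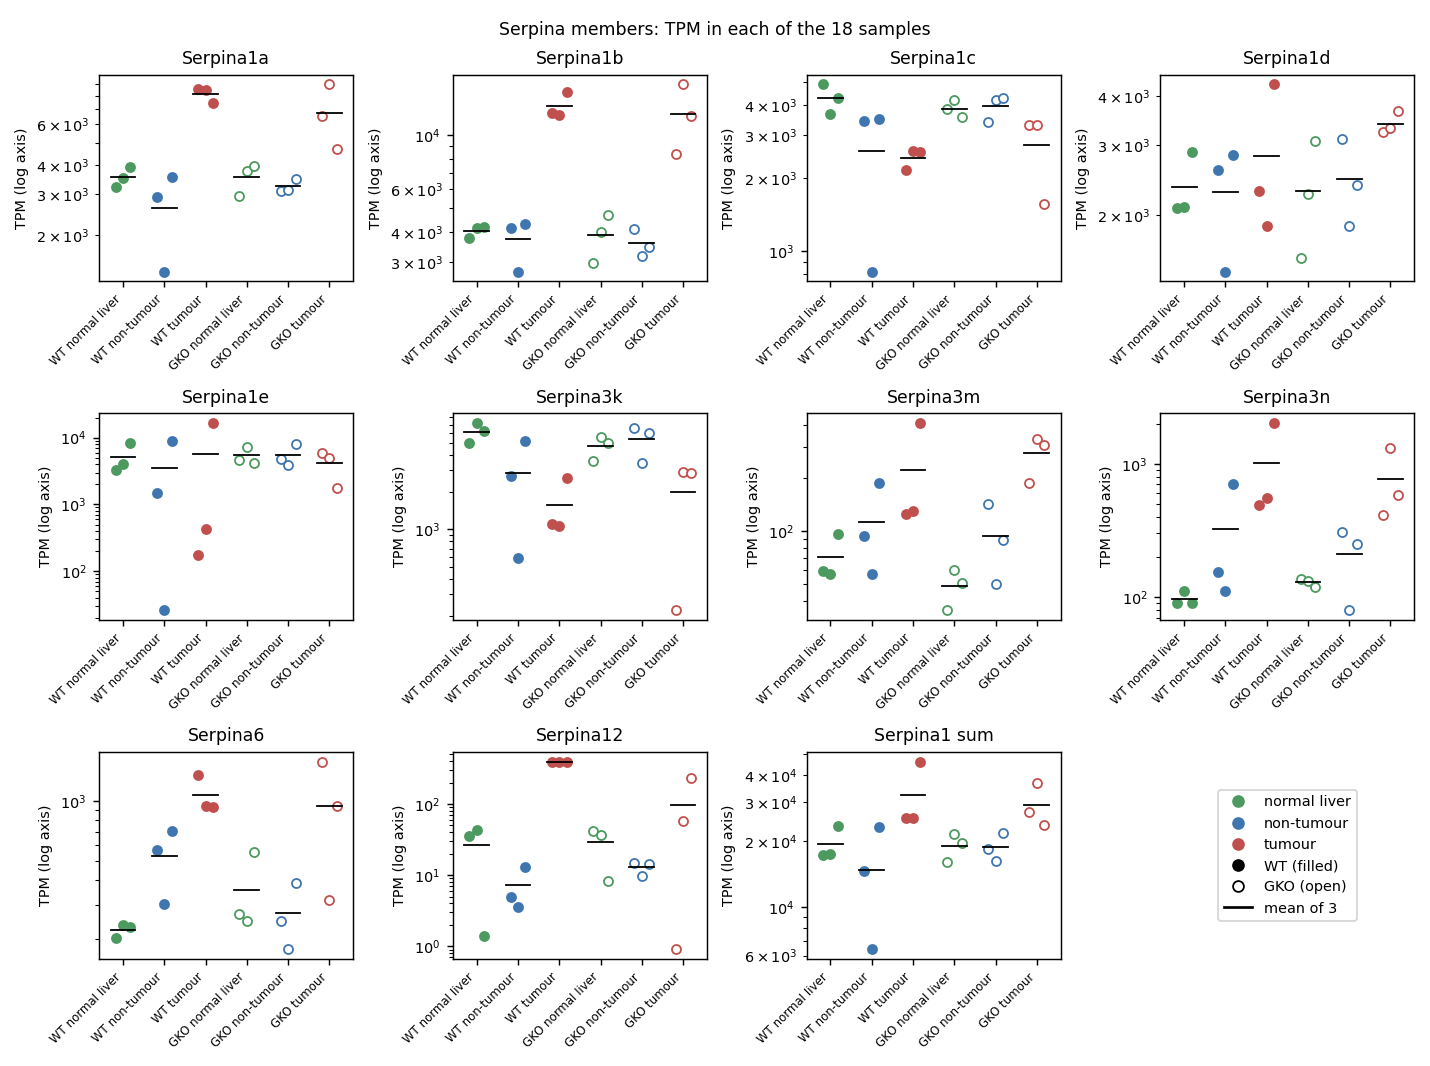
TPM (log axis) of the 10 members and of the Serpina1 sum in each sample, by group; filled points are WT, open points GKO, and the black line is the mean of 3 samples. Serpina1b is higher in all 6 tumours (8319 to 16213 TPM) than in all 12 livers (2744 to 4701 TPM), whereas Serpina1e ranges from 25.8 to 16727 TPM.

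Differences were tested with limma on log2(TPM + 1), with p-values adjusted by the Benjamini-Hochberg method over all genes tested and a call at an adjusted p under 0.05. Fold changes refer to log2(TPM + 1), so those of genes at a few TPM are understated. For 3 samples against 3 an exact permutation p of one gene cannot go below 0.1.

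Tumours were first compared with the non-tumour livers of WT mice, to see what changed with tumour formation. Serpina1b and Serpina12 rose and no member fell. These 2 of 10 members stand beside 4.23% of all genes called (592 of 14003), and the median log2 fold change was 1.0 for the members and -0.02 for all genes. In 4 of the 10 members the groups did not overlap, against 24.8% of all genes.

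Serpina1b was at 12266, 12117 and 14956 TPM in WT tumours and at 4138, 2744 and 4300 TPM in WT non-tumours. Every tumour was above every non-tumour liver, and the log2 fold change was 1.84 ± 0.28 (SE, adjusted p = 0.0181). The call was lost when WT tumour 1 or 2 was left out (adjusted p = 0.0802 and 0.0835), when both were averaged into 1 sample (0.0807), and without WT non-tumour 1 or 3 (0.0635 and 0.0537), while the log2 fold change stayed between 1.63 and 1.95. It was also lost with no filter on low values. Serpina1a had the same pattern of levels, with 8533, 8474 and 7410 TPM in WT tumours and 2910, 1386 and 3556 TPM in WT non-tumours. Its groups did not overlap either, but its log2 fold change of 1.74 ± 0.38 did not pass the test (adjusted p = 0.0587).

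The other copies did not follow. Serpina1c was at 2150, 2574 and 2555 TPM in WT tumours and at 3439, 820.7 and 3519 TPM in WT non-tumours. The tumours lay between the low WT non-tumour 2 and the other livers, and the log2 fold change was 0.17 ± 0.57 (adjusted p = 0.91), turning to -0.52 without WT non-tumour 2. Serpina1d gave a log2 fold change of 0.27 ± 0.42 (adjusted p = 0.778), with overlapping groups. Serpina1e was the most scattered member, at 174.3, 425.0 and 16727 TPM in WT tumours and at 1483, 25.8 and 8889 TPM in WT non-tumours. WT tumour 3 and WT non-tumour 3 were high and WT tumours 1 and 2 and WT non-tumour 2 low, and the log2 fold change of 0.61 ± 2.44 had no direction that held, being -1.37 without WT tumour 3.

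Summed over the 5 copies, Serpina1 messenger RNA reached 25416, 25467 and 45933 TPM in WT tumours and 14564, 6414 and 23100 TPM in WT non-tumours. The groups did not overlap, but the log2 fold change of 1.26 ± 0.51 did not pass the test (adjusted p = 0.239, exact permutation p = 0.1, 2-sided, the smallest possible). Without WT non-tumour 2, the lowest sample, it was 0.76. With all 18 samples in one fit, which shares one estimate of the spread, the sum passed with the same fold change (adjusted p = 0.0401).

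**Figure D2:**
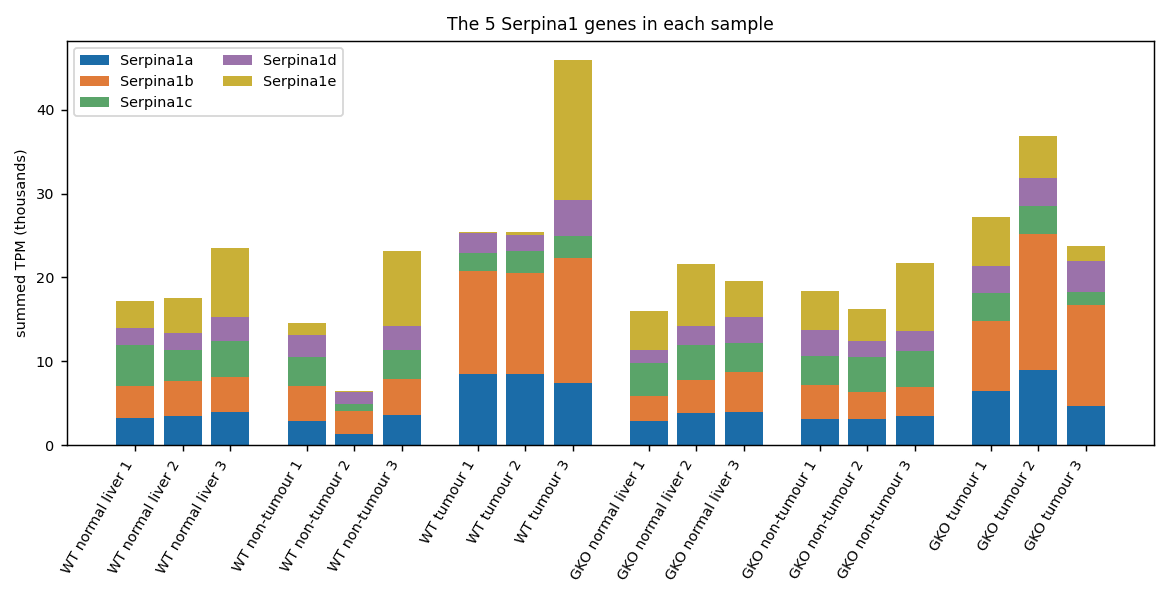
Stacked bars of the TPM, summed on the y axis, of the 5 Serpina1 genes in each of the 18 samples. The sum is 23716 TPM or more in the 6 tumours, where Serpina1a and Serpina1b together make up 48.7% or more, Serpina1e is the largest part of WT tumour 3, and Serpina1e is nearly missing from WT non-tumour 2 and WT tumours 1 and 2.

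Among the other members, Serpina12 showed the largest change. It was at 390.5, 385.3 and 392.5 TPM in WT tumours and at 5.01, 3.52 and 13.1 TPM in WT non-tumours. The 3 tumours were nearly equal, with an SD of 3.7 TPM, and the log2 fold change was 5.75 ± 0.42 (adjusted p = 0.00149). This call held under each alternative tried, with a log2 fold change between 5.41 and 6.23 when 1 replicate was left out. The corticosteroid carrier Serpina6 was at 1349, 948.6 and 938.3 TPM in WT tumours and at 569.3, 302.0 and 705.8 TPM in WT non-tumours. Its groups did not overlap, the log2 fold change being 1.1 ± 0.37 (adjusted p = 0.169).

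The Serpina3 members did not pass the test in WT mice. Serpina3n gave a log2 fold change of 1.83 ± 0.82 (adjusted p = 0.279), with WT tumour 3 at 2026 TPM, the other tumours at 488.0 and 550.0 TPM, and WT non-tumour 3 at 699.5 TPM. With the replicate number as a block it passed (adjusted p = 0.0384). Of these same-numbered samples, only those numbered 3 deviated most like each other (r = 0.308, against 0.05 and 0.043 for numbers 1 and 2). Without WT tumour 3 the log2 fold change of Serpina3n was 1.17 (adjusted p = 0.406). Serpina3m gave 0.9 ± 0.6 (adjusted p = 0.464), which was 0.34 without WT tumour 3 (adjusted p = 0.721), and Serpina3k -0.48 ± 0.81 (adjusted p = 0.799).

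In GKO mice the same comparison called Serpina1b and Serpina3m, both higher in tumours. These 2 of 10 members stand beside 11.7% of all genes called (1652 of 14092), and the median log2 fold change was 1.06 for the members and 0.2 for all genes. The groups did not overlap in 7 members, against 38.3% of all genes. In a fit with the replicate number as a block, 1 of the 10 members was called.

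Serpina1b was at 8319, 16213 and 12020 TPM in GKO tumours and at 4116, 3176 and 3479 TPM in GKO non-tumours. All tumours were higher, the log2 fold change being 1.72 ± 0.3 (adjusted p = 0.0166). The adjusted p was 0.0553 without GKO non-tumour 2, 0.0757 without GKO non-tumour 3 and 0.0525 without GKO tumour 3, with log2 fold changes between 1.49 and 1.97 over all replicates left out. With no filter on low values the call was lost as well. Serpina1a was at 6512, 8985 and 4721 TPM in GKO tumours and at 3088, 3136 and 3487 TPM in GKO non-tumours. Again the groups did not overlap, and the log2 fold change of 1.01 ± 0.29 did not pass (adjusted p = 0.0628). Serpina1c had the opposite sign, at 3296, 3321 and 1561 TPM in tumours and 3398, 4197 and 4262 TPM in non-tumours, and a log2 fold change of -0.61 ± 0.34 (adjusted p = 0.258).

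The Serpina1 sum was at 27178, 36877 and 23716 TPM in GKO tumours and at 18442, 16284 and 21728 TPM in GKO non-tumours. All tumours were above all non-tumour livers by a log2 fold change of 0.62 ± 0.26, which did not pass the test (adjusted p = 0.152, exact permutation p = 0.1, 2-sided). Serpina1d (0.5 ± 0.26, adjusted p = 0.229) and Serpina1e (-0.51 ± 0.5, adjusted p = 0.507) did not pass either.

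Serpina3m was at 187.2, 331.6 and 305.0 TPM in GKO tumours and at 142.1, 50.1 and 88.4 TPM in GKO non-tumours, a log2 fold change of 1.62 ± 0.42 (adjusted p = 0.0469). This call rested on few samples, since it was lost with the replicate block (0.0728) and when any replicate but GKO non-tumour 1 was left out: adjusted p = 0.102 without GKO non-tumour 2, 0.147 without GKO non-tumour 3, 0.0545 without GKO tumour 1, 0.102 without GKO tumour 2 and 0.129 without GKO tumour 3. The call was also lost with no filter on low values. Serpina3n was at 412.1, 1318 and 586.8 TPM in GKO tumours and at 307.4, 79.5 and 249.3 TPM in GKO non-tumours. All tumours were higher, but the log2 fold change of 1.9 ± 0.61 did not pass (adjusted p = 0.0832). Serpina3k went the other way, at 222.6, 2913 and 2835 TPM in tumours and 6523, 3452 and 6001 TPM in non-tumours. All tumours were lower, the log2 fold change being -2.06 ± 0.95 (adjusted p = 0.18).

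Serpina6 was at 1582, 316.8 and 946.7 TPM in GKO tumours and at 247.4, 178.4 and 387.1 TPM in GKO non-tumours. GKO tumour 2 lay within the range of the livers, and the log2 fold change of 1.59 ± 0.59 (adjusted p = 0.116) became 2.24 and passed without it (adjusted p = 0.0254). Serpina12 was at 0.909, 57.4 and 232.7 TPM in GKO tumours and at 14.7, 9.79 and 14.2 TPM in GKO non-tumours. GKO tumour 1 was below all the livers and the other tumours above them, and the log2 fold change of 1.11 ± 1.52 (adjusted p = 0.637) became 3.09 without GKO tumour 1 (adjusted p = 0.0285) and -0.38 without GKO tumour 3.

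**Figure D3:**
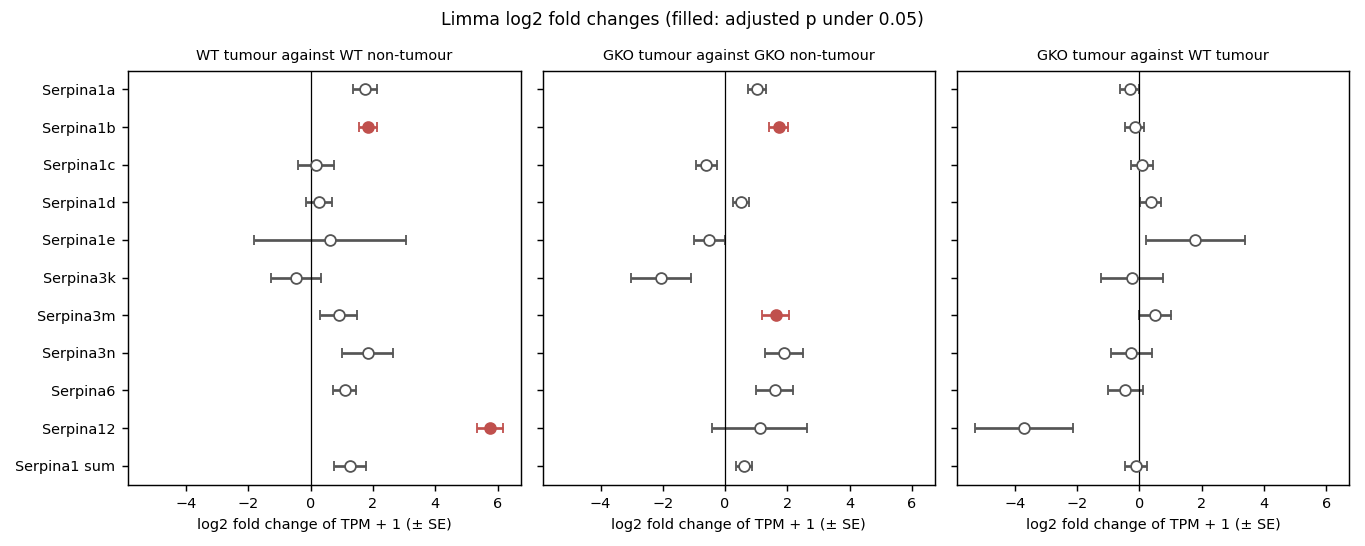
Limma log2 fold changes on the log2(TPM + 1) scale with their standard errors for the 10 members and the Serpina1 sum in 3 comparisons; filled red points passed an adjusted p under 0.05. Serpina1b passed in the tumours of both genotypes, Serpina12 in WT only and Serpina3m in GKO only, and no member passed between GKO and WT tumours.

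GKO and WT tumours were then compared directly. The paper reports that GKO tumours were smaller and had fewer proliferating cells. The knockout itself therefore cannot be told apart here from tumour size and growth. No member was called, beside 0.0215% of all genes (3 of 13964). Limma gave 1 member with an unadjusted p under 0.05, beside 1238 of the 13964 genes, voom on recovered reads called 0 members, and the fit with the replicate block called 0 members and 0 genes in all. The groups did not overlap in 1 of 10 members, Serpina12, against 14.7% of all genes. The median log2 fold change was -0.2 for the members and 0.09 for all genes.

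Serpina12 was lower in each GKO tumour (0.909, 57.4 and 232.7 TPM) than in each WT tumour (385.3 to 392.5 TPM). The GKO tumours covered a 256.0-fold range, and the log2 fold change of -3.72 ± 1.57 did not pass the test (unadjusted p = 0.0495, adjusted p = 0.56). Without GKO tumour 1, the lowest, it was -1.74. The difference between the genotypes in the change from non-tumour liver to tumour was -4.63 ± 1.8 on the log2 scale and did not pass either (adjusted p = 0.468). For this difference of changes no member was called, beside 0.0142% of 14106 genes, with 1 member at an unadjusted p under 0.05, beside 1483 of the genes, and 0 called by voom.

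The Serpina1 sum was 29257 ± 6822 TPM in GKO tumours and 32272 ± 11831 TPM in WT tumours, and the groups overlapped. The log2 fold change was -0.11 ± 0.34 (adjusted p = 0.941, exact permutation p = 0.7, 2-sided), a sign that was not kept without WT tumour 3 (0.18) or GKO tumour 3 (0.03). Serpina1b (-0.15 ± 0.31, adjusted p = 0.904) and Serpina1a (-0.32 ± 0.3, adjusted p = 0.762) overlapped between the genotypes. For Serpina1e the log2 fold change of 1.79 ± 1.59 (adjusted p = 0.751) and the ratio of the mean TPM, 0.728, had opposite directions. The remaining log2 fold changes lay between -0.45 for Serpina6 and 0.5 for Serpina3m, all with adjusted p of 0.764 or more.

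Non-tumour and normal livers showed no called member in any comparison. Between GKO and WT non-tumours 0.0% of 13768 genes were called (799 at an unadjusted p under 0.05), between GKO and WT normal livers 0.0% of 13099 (519), between GKO non-tumours and GKO normal livers 0.0% of 13530 (703), and between WT non-tumours and WT normal livers 0.00744% of 13440 (3282). The difference between the genotypes in the change from normal to non-tumour liver called 0.0% of 13488 genes (830 at an unadjusted p under 0.05). Voom on recovered reads called 0 genes in each of these 5 comparisons. Among the members, unadjusted p-values under 0.05 were found for Serpina3n in normal livers (137.4, 131.8 and 118.6 TPM in GKO against 90.0, 110.5 and 91.0 TPM in WT, log2 fold change 0.41 ± 0.16, adjusted p = 0.999) for Serpina6 in WT non-tumours against WT normal livers (525.7 ± 205.4 against 224.2 ± 17.7 TPM, log2 fold change 1.14 ± 0.33, adjusted p = 0.134), and for Serpina6 in the difference of these changes.

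With the normal livers of untreated mice as the control, more members passed. In WT tumours 5 members rose and 2 fell, beside 27.5% of all genes called (3750 of 13644). Serpina12 (log2 fold change 4.65), Serpina3n (3.06), Serpina6 (2.24), Serpina1b (1.69) and Serpina1a (1.19) rose, and Serpina3k (-2.06, adjusted p = 0.0109) and Serpina1c (-0.82, adjusted p = 0.0295) fell. The size for Serpina12 leans on WT normal liver 3, since the WT normal livers were at 35.3, 43.0 and 1.38 TPM. Its fold change was 25.0, and its ratio of mean TPM 14.7. With samples left out, an alternative chosen after seeing the data, 5 to 9 members were called. It was 5 without WT tumour 1, without WT tumour 2 or with both averaged, since Serpina12 (adjusted p = 0.0604, 0.0588 and 0.0574) and Serpina1c (0.11, 0.0753 and 0.0882) were then not called. Without WT tumour 3 it was 9, Serpina1e (-4.12, adjusted p = 0.00238) and Serpina3m (0.88, adjusted p = 0.036) passing as well. Serpina1c was also lost when any 1 of the normal livers was left out (0.124, 0.0599 and 0.0705). In GKO tumours 3 members rose and none fell, beside 20.1% of 13928 genes called: Serpina3m (2.47), Serpina3n (2.4) and Serpina1b (1.62). The call of Serpina1b was lost without GKO normal liver 1 or 2 (adjusted p = 0.0541 and 0.0561), and Serpina6 passed without GKO tumour 2 (1.87, adjusted p = 0.0304). Serpina1b thus passed against both kinds of liver in both genotypes with all samples in the fit. The Serpina1 sum did not pass against normal livers (0.69 ± 0.31 in WT, adjusted p = 0.14, and 0.61 ± 0.28 in GKO, adjusted p = 0.158).

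Ordered by its mean, the sum was 14692 TPM for WT non-tumours, 18818 for GKO non-tumours, 19033 for GKO normal livers, 19406 for WT normal livers, 29257 for GKO tumours and 32272 for WT tumours. The 4 liver groups overlapped each other, as did both tumour groups, while the lowest tumour (23716 TPM) was just above the highest liver (23495 TPM). The Serpina1 copies made up 1.46% to 2.35% of all TPM in 11 of the 12 livers, 0.641% in WT non-tumour 2 and 2.37% to 4.59% in the tumours.

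The make-up of the sum also differed between samples. Serpina1a and Serpina1b together held 81.8%, 80.9% and 48.7% of it in WT tumours and 54.6%, 68.3% and 70.6% in GKO tumours. In normal livers they held 34.6% to 43.8% in WT and 36.1% to 44.4% in GKO, and in non-tumour livers 48.4%, 64.4% and 34.0% in WT and 39.1%, 38.8% and 32.1% in GKO. Serpina1c took up 8.04% ± 2.3 (SD) in WT tumours and 9.24% ± 2.78 in GKO tumours, against 22.6% ± 5.25 in WT and 20.6% ± 3.08 in GKO normal livers. The share of Serpina1e was 0.686%, 1.67% and 36.4% in WT tumours, 0.403% in WT non-tumour 2 and between 7.44% and 38.5% in the remaining 14 samples. These shares are a description and carry no test, and each depends on how reads of the copies were divided.

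Over the 18 samples, Serpina1a and Serpina1b varied together (Pearson's r = 0.9 of log2 values), as did Serpina3m and Serpina3n (0.91) and Serpina1c and Serpina1e (0.78). Serpina1 and Serpina3 genes also varied together. Serpina1b did so with Serpina3n (0.84) and Serpina3m (0.82), and Serpina1d with Serpina3m (0.79). Serpina1b and Serpina1c did not (-0.25), and Serpina3k ran against Serpina6 (-0.61). These values are descriptive, since the samples share their groups and the pairs of near copies could share reads.

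Among 6848 other genes whose mean reached 5 TPM, those most like Serpina1b were Itih5 (r = 0.955), Aebp1 (0.952) and Erich4 (0.949). For Serpina1a they were H2-Q7 (0.914) and Gm8893 (0.906), and for the sum Rdh16f2 (0.933), Crlf2 (0.852) and Gm8893 (0.847). Serpina1e was most like Il6ra (0.845), the interleukin 6 receptor, followed by Cadm4 (0.819) and its neighbour in the cluster Serpina11 (0.814). Serpina3m was most like Cfi (0.942), Fga (0.938) and Lrrc3 (0.934), the first 2 of which encode complement factor I and a fibrinogen chain, and Serpina3n was most like Igsf8 (0.945), Lgmn (0.941) and Isyna1 (0.934). For Serpina1c, Serpina1d, Serpina3k, Serpina6 and Serpina12 the closest genes were Cyp8b1 (0.877), Ptprk (0.81), Fgf1 (0.912), Gnat1 (0.921) and Perp (0.851).

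The neighbours in the cluster were expressed unevenly. Of its 42 genes, 17 reached a mean of 0.5 TPM over the 18 samples, among them all 10 members, and 25 were below it. Among the latter, Serpina3j was listed at 0 in each sample, and Serpina1f, Serpina5, Serpina9 and Serpina16 did not exceed 0.521 TPM in any sample. Serpina10, the inhibitor of factor Xa that works with protein Z, did not pass in WT tumours against non-tumours (log2 fold change 0.22 ± 0.39, adjusted p = 0.809) or in GKO (0.86 ± 0.37, adjusted p = 0.162). Serpina11 had a negative sign in both (-0.75 ± 0.75, adjusted p = 0.638, and -1.0 ± 0.27, adjusted p = 0.0546).

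A pair of pseudogenes was also found in the expressed part. Serpina4-ps1 fell in GKO tumours by 3.17 on the log2 scale (adjusted p = 0.00877), from 11.5, 14.3 and 17.4 TPM to 0.168, 2.47 and 0.189 TPM, and in WT tumours it was at 0.47, 0.0946 and 0.44 TPM against 20.9, 0.0952 and 16.9 TPM, with WT non-tumour 2 as low as the tumours (adjusted p = 0.258). Gm8893 (103817856 to 103822243, minus strand), an unprocessed pseudogene inside the span of Serpina1b, rose in GKO tumours to 111.6, 344.4 and 138.8 TPM from 33.5, 58.1 and 24.6 TPM (log2 fold change 2.23, adjusted p = 0.0309). In WT tumours it was at 136.8, 140.1 and 187.0 TPM against 41.5, 6.21 and 48.9 TPM (2.63, adjusted p = 0.105). Its transcript shared 205 of its 1143 windows of 100 bases with Serpina1a, 168 with Serpina1c, 140 with Serpina1d, 137 with Serpina1b and 103 with Serpina1e.

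**Figure D4:**
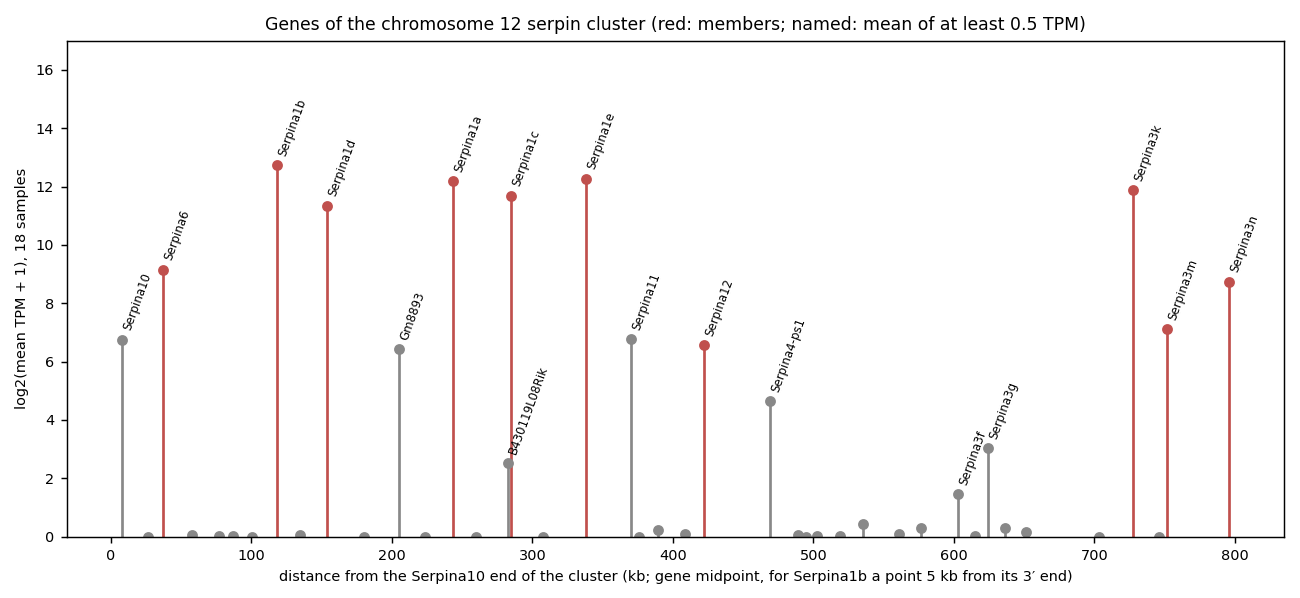
Mean expression over the 18 samples, as log2(mean TPM + 1), of the 42 annotated genes of the chromosome 12 cluster against their distance from its Serpina10 end. The 10 members are red, and names are given to the 17 genes whose mean reached 0.5 TPM; the Serpina1 genes and Serpina3k stand highest, between long runs of genes near 0.

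Other clade A serpins outside the members, a list of 15, had 5 genes high enough to test. In WT tumours against non-tumours 0 passed, and in GKO 1 rose, Serpina7 (thyroxine-binding globulin, on the X chromosome), from 21.5, 12.0 and 13.3 TPM to 143.3, 86.5 and 33.9 TPM (log2 fold change 2.24 ± 0.51, adjusted p = 0.0351). Of 11 serpins of other clades, Serpind1, the thrombin inhibitor heparin cofactor II, rose in both genotypes (1.44 ± 0.25, adjusted p = 0.0273 in WT and 1.47 ± 0.27, adjusted p = 0.019 in GKO). It was the only one of them to pass in WT, where 4.23% of all genes were called. In GKO tumours 4 rose and 1 fell, beside 11.7% of all genes called. Besides Serpind1, those that rose included Serpinh1 (2.03 ± 0.27), the collagen chaperone, and Serpinf2 (1.56 ± 0.31), alpha-2 antiplasmin, while Serpinb1a fell by 1.84 on the log2 scale. The median log2 fold change of the 11 was 0.52 in WT and 0.91 in GKO, beside -0.02 and 0.2 for all genes. Against normal livers 5 of the 11 rose and 1 fell in WT tumours, beside 27.5% of all genes called. In GKO tumours 5 rose and 0 fell, beside 20.1%. Of the other clade A serpins only Serpina11 passed against normal livers, falling in GKO (-1.0 ± 0.26, adjusted p = 0.0367).

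Proteases that serpins inhibit were expressed at very different levels. Neutrophil elastase (Elane) was at 0.882 TPM or less in every sample, and Klk7, the kallikrein that vaspin inhibits, was listed at 0 in each. F2 (prothrombin) was at 394.7 to 2474 TPM and Proc, protein C, at 639.5 to 1028 TPM. Of 12 listed proteases, 8 could be tested and 0 passed in WT tumours against non-tumours. In GKO tumours F2 rose (1.36 ± 0.33, adjusted p = 0.0412) and Klkb1, plasma kallikrein, fell by 1.31 on the log2 scale (adjusted p = 0.0267), beside 11.7% of all genes called. Against normal livers F2 rose (1.15 in WT and 1.55 in GKO) and Klkb1 fell (-2.21 and -1.66) in both genotypes. No other listed protease passed there, beside 27.5% of all genes called in WT and 20.1% in GKO.

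Regulators of the family were examined next. None of 10 liver transcription factors and none of 6 genes of interleukin 6 signalling passed in tumours against non-tumours in either genotype. Cebpa, the factor with the highest mean in each of the 6 groups, had log2 fold changes of -0.49 ± 0.37 in WT (adjusted p = 0.531) and 0.47 ± 0.32 in GKO (adjusted p = 0.345). Jak1, the kinase with the highest mean of the signalling genes in the tumours of both genotypes, had 0.62 ± 0.19 (adjusted p = 0.147) and 0.65 ± 0.21 (adjusted p = 0.0878). Against normal livers Jak1 (1.17 ± 0.17, adjusted p = 0.00468 in WT and 0.97 ± 0.2, adjusted p = 0.0162 in GKO) rose in both genotypes, and the bile acid receptor Nr1h4 fell in WT (-1.54 ± 0.33, adjusted p = 0.0171). The 18 listed acute phase proteins, read because Serpina3n is also an acute phase protein, were called in both directions. In WT tumours against non-tumours 0 rose and 1 fell, Orm3 (log2 fold change -3.25 ± 0.59, adjusted p = 0.0314), beside 4.23% of all genes called. Their sum was 20042, 24456 and 74963 TPM in WT non-tumours and 27838, 25505 and 55158 TPM in WT tumours. The highest of each, WT non-tumour 3 and WT tumour 3, were also highest in Serpina3n and Serpina1e within their groups. In GKO the sum was highest in GKO tumour 1 (33043 TPM) and GKO non-tumour 3 (33457 TPM). These were highest in Serpina1e too, but Serpina3n was highest in GKO tumour 2 (1318 TPM) and GKO non-tumour 1 (307.4 TPM). In normal livers the sum was highest in replicate 2 of both genotypes, which was highest in Serpina3n in WT only and in Serpina1e in GKO only. In GKO tumours 4 of the 18 rose and 2 fell, beside 11.7% of all genes called. Lcn2 (3.8 ± 0.5) and Apcs (2.39 ± 0.44) rose, and Orm3 and Orm1 fell by 2.64 and 2.35 on the log2 scale. Against normal livers 3 rose and 0 fell in WT tumours, Lcn2 (7.35), Cp (1.42) and Hpx (1.19), beside 27.5% of all genes called in either direction. In GKO tumours 8 rose, led by Lcn2 (5.44) and Apcs (3.34), and 1 fell, Orm1 (-1.93), beside 20.1%. Lcn2 (lipocalin 2) was also 1 of the 3 genes called between GKO and WT tumours, at 208.5, 175.7 and 168.3 TPM in GKO and 868.7, 906.4 and 971.3 TPM in WT (-2.31 ± 0.2, adjusted p = 0.0434), and the only one of the 18 acute phase proteins to pass there. With the replicate block, in which 0 genes were called, its log2 fold change was the same and its adjusted p was 0.196.

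In tumours against non-tumours, few secretion genes and no hormone response genes were called. Of 12 genes of the secretory pathway, 12 in WT and 11 in GKO had a positive log2 fold change in tumours. The medians were 0.81 and 0.65, beside -0.02 and 0.2 for all genes. Only Mcfd2 in GKO, a cargo receptor subunit, passed (1.62 ± 0.3, adjusted p = 0.0191), beside 11.7% of all genes called there. Calr, a chaperone with the highest mean of them in WT tumours and WT non-tumours, was at 1126, 1209 and 227.2 TPM in WT tumours and 411.0, 689.2 and 588.3 TPM in WT non-tumours. None of 8 glucocorticoid response genes passed in tumours against non-tumours in either genotype, and Tat, with the highest mean of them in each of the 6 groups, had log2 fold changes of 0.61 ± 0.96 (adjusted p = 0.782) in WT and 0.59 ± 0.39 (adjusted p = 0.322) in GKO. Against normal livers the calls were more, as for all genes. Of the 12 secretory genes 7 rose in WT tumours, beside 27.5% of all genes called in either direction, among them the chaperone Hspa5 (2.35 ± 0.61, adjusted p = 0.0316), Edem1 (1.62 ± 0.29, adjusted p = 0.00964) and Mcfd2 (1.55 ± 0.19, adjusted p = 0.00269). In GKO tumours 3 of them rose, Mcfd2, Edem1 and Canx, beside 20.1%. Of the 8 glucocorticoid response genes 0 passed against normal livers in WT and 2 rose in GKO, Sgk1 (2.15 ± 0.58, adjusted p = 0.0389) and Fkbp5 (1.55 ± 0.3, adjusted p = 0.0141).

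Markers of cell types were measured beside these changes. Of 12 hepatocyte markers, 2 rose in WT tumours against non-tumours, Ahsg (fetuin A, 2.41 ± 0.35) and Alb (1.4 ± 0.26). No marker of these 12 fell, beside 4.23% of all genes called in either direction. The median log2 fold change of the 12 was -0.01, beside -0.02 for all genes, and 6 of the 12 had a positive sign. Apoa2 (-1.41 ± 0.34, adjusted p = 0.0744) and Asgr1 (-0.9 ± 0.24, adjusted p = 0.107) had the opposite sign to Alb. In GKO tumours 3 rose (Ahsg 2.67, Alb 2.0 and Apoa1 1.38) and 1, Apoa2, fell by 1.25 on the log2 scale, beside 11.7% of all genes called. The median of the 12 was -0.01 there, beside 0.2 for all genes. The summed hepatocyte markers were 254362 to 265099 TPM in WT tumours and 152087 to 213356 TPM in WT non-tumours. Alb had the highest mean of the 12 in the tumours of both genotypes (105579 TPM in WT and 112045 TPM in GKO) and Apoa2 in each of the 4 liver groups (69343 to 89561 TPM). In bulk tissue, more cells of a type and more RNA per cell cannot be told apart, and the part of these markers in the rise of Serpina1b was not tested. Summed macrophage markers (7 genes) were 32.0, 68.6 and 56.1 TPM in WT tumours and 207.5, 52.6 and 364.2 TPM in WT non-tumours. Cd5l had the highest mean of them in both groups, at 6.24 to 25.5 TPM in WT tumours and 10.3 to 140.5 TPM in WT non-tumours, and Clec4f was at 2.79, 9.76 and 9.31 TPM in WT tumours. WT non-tumour 2, in which Serpina1e was at 25.8 TPM and Serpina3k at 586.3 TPM, was also lowest in Clec4f among the non-tumours (5.95 TPM). Adipocyte markers were read because Serpina12 is known from fat. Adipoq, Lep and Plin1 were at 0 in all 3 WT tumours, and of the 6 markers 2 could be tested and 0 passed against non-tumours. Their sum of 53.6, 59.8 and 19.5 TPM was almost all Fabp4, at 52.8, 59.6 and 19.5 TPM. In WT tumours against non-tumours 0 of 8 fibroblast and stellate cell markers, 0 of 7 endothelial, 0 of 7 macrophage and 0 of 6 adipocyte markers passed. In GKO tumours Fabp4 rose (2.66 ± 0.39, adjusted p = 0.0101). There 4 fibroblast and stellate cell markers rose and 1 fell, 2 endothelial markers rose and 1 macrophage marker fell, beside 11.7% of all genes called.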

How the data were processed

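Messenger RNA was sequenced in 18 samples, in 6 groups of 3 set by the labels. The authors aligned reads to mm10 with STAR 2.7.3a and counted them with featureCounts 2.0.0; strand and the handling of reads with several matches are not given in the sources used here. The deposited values are TPM. Whole reads per gene were recovered from them, with at least 97.95% of low values whole within 0.02. The main test was limma 3.58.1 (R 4.3.3; lmFit, eBayes with trend) on log2(TPM + 1), on the 6 samples of each comparison and genes whose mean reached 0.5 TPM, with Benjamini-Hochberg adjustment over all genes. It was also run on simulated data, with an outcome that is not given here. Same-numbered GKO and WT tumours deviated together (r = 0.142, 0.154 and 0.252 over 6858 genes), so the block fit is given there. All 10 members were named, with up to 3 genes most like each, and list genes by their calls; a few genes that these rules name are not reported here. Alternatives changed the pseudocount, filter, scaling, samples fitted, variance model, replicate block and samples left out. Coding sequences were aligned with mafft 7.526. The members and lists were chosen with earlier results of these data known.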

Additional observations from a re-analysis of the deposited data

How the results depend on the processing

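Serpina12 in WT tumours against non-tumours kept its direction and its call under each alternative run. The count of members called there was 2, and was 1 with no filter on low values, 1 with WT tumours 1 and 2 averaged, 7 with normal livers as the control and 1 to 2 with a replicate left out. In GKO tumours against non-tumours it was 2, and was 0 with no filter, 4 with all 18 samples in one fit, 1 with the replicate block and 0 to 2 with a replicate left out. In the other comparisons checked for pairing, samples were closest to their own number for some numbers only. In GKO tumours against non-tumours this held for numbers 1 and 2 (r = 0.155 and 0.069) but not for 3 (-0.001). In WT tumours against non-tumours it held for number 3 only (r = 0.308). Whether tumours and non-tumours share mice is not known. Tumours against normal livers were not checked. Over GKO and WT tumours the block changed no call of a member, and took the genes called from 3 to 0. The log2 fold change of the Serpina1 sum passed in WT tumours with all 18 samples in one fit (1.26, adjusted p = 0.0401). Between GKO and WT tumours the sum was 0.35 as the mean of the 5 single genes, 0.0 with quantile normalization and -0.29 to 0.18 with a replicate left out. With quantile normalization it was 0.08 between normal livers of the genotypes and 0.07 in GKO non-tumours against normal livers, and with a replicate left out it was -0.12 to 0.12 and -0.13 to 0.08. The cause of these changes was not tested.

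Among single members, Serpina1b between GKO and WT tumours was 0.22 with quantile normalization, and with normal livers as the control in WT tumours Serpina1c was -0.82 and Serpina1e -2.14. With a replicate left out, log2 fold changes between GKO and WT tumours were -0.38 to 0.1 for Serpina1b, -0.09 to 0.45 for Serpina1c, -0.87 to 0.99 for Serpina3k, -0.73 to 0.4 for Serpina3n and -0.95 to 0.2 for Serpina6. In WT tumours against non-tumours they were -0.52 to 0.52 for Serpina1c, -0.08 to 0.51 for Serpina1d, -1.75 to 2.43 for Serpina1e and -1.37 to 0.2 for Serpina3k, and in GKO -0.83 to 0.03 for Serpina1e and -0.38 to 3.09 for Serpina12. In the comparisons for which single members are not listed here, a choice made after the values were seen, 72 of 1080 recomputed fold changes changed sign, 0 of them with an adjusted p under 0.05. With all comparisons counted, 106 of 1914 changed sign, 1 of them with an adjusted p under 0.05. In tumours against normal livers, with a replicate left out, an alternative added after seeing the data, the members called were 5 to 9 in WT and 2 to 4 in GKO. The log2 fold changes were then -0.16 to 0.43 for Serpina1d in WT, and -0.82 to 0.04 for Serpina1e and -1.22 to 2.24 for Serpina12 in GKO. The Serpina1 sum in WT was 0.02 there as the mean of the 5 single genes. With 3 samples a group, and near-identical Serpina1 copies, single-copy values are the least certain.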
